A study of Rattus norvegicus with 9 samples.

Results

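The genes described here are those of the extracellular and membrane part of Wnt signalling on a rat expression array. They were taken by name: probes whose RefSeq transcript carries a rat symbol beginning with Wnt and a digit, Fzd, Sfrp, Dkk or Rspo, or one of Lgr4 to Lgr6, Lrp5, Lrp6, Wif1, Frzb, Axin2 and Lef1. In all, 43 genes of 15163 gene symbols on the array met this rule, measured by 51 of 30356 probes. They were 17 Wnt ligands, 3 R-spondins, 8 Frizzled receptors, 2 LRP co-receptors, 2 R-spondin receptors of the Lgr family, 4 secreted Frizzled-related proteins, 5 members of the Dickkopf family, and the readout genes Axin2 and Lef1.

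Whole prostates of male Sprague Dawley rats, bought at 6 weeks of age, were profiled on one-colour Agilent arrays, with 3 arrays in each of 3 groups. Sham rats had a sham operation for castration, corn oil under the skin and vehicle by mouth. BPH rats (a model of benign prostatic hyperplasia) were castrated and received dihydrotestosterone at 3 mg/kg daily under the skin for 4 weeks with oral vehicle, so that the BPH group differs from sham by castration and by the androgen together. BPH+ghrelin rats were treated as the BPH rats and were also given ghrelin, the stomach peptide that activates the growth hormone secretagogue receptor, by mouth at 20 nmol/kg daily in the last 2 weeks. A legend of the study gives another dose and route for ghrelin than its methods, which are followed here. The study held 8 rats per group. Its methods state a group size of 3 for the arrays, and its legends 3 rats per group for the BPH and BPH+ghrelin arrays. Which rats were taken is not given in the sources used here. They also do not say outright that each sham array is of another rat.

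As background, Wnt proteins are secreted lipid-modified ligands that bind a Frizzled receptor together with the co-receptor Lrp5 or Lrp6, and binding protects beta-catenin from breakdown so that it can switch on target genes with factors of the TCF/LEF family. R-spondins act through Lgr receptors and keep Frizzled and LRP proteins on the cell surface. Secreted Frizzled-related proteins bind Wnt ligands, and Dickkopf proteins bind the LRP co-receptors, so both families are counted as antagonists. In the developing prostate these signals pass between the stroma and the epithelial buds.

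Values are log2 signals after quantile normalization of the scanner's processed signal, listed for replicates 1, 2 and 3 of a group. Each probe has its own brightness, so values were compared between groups for a probe and never between genes. Median raw signal ran from 40.9 to 133 over the 9 arrays, and 61.3% to 75.03% of probes were flagged by the scanner as well above background. A probe with that flag is called detected below. Sham replicate 2 was the dimmest array on both measures. Arrays with the same scan date entry in the scanner headers were taken as 1 slide, numbered by that entry. Slide below is thus inferred from the scan date, and no slide identifier was read. This placed the 3 BPH arrays and BPH+ghrelin replicate 1 on slide 3, BPH+ghrelin replicates 2 and 3 and sham replicates 1 and 2 on slide 2, and sham replicate 3 on slide 1. No slide held both BPH and sham arrays, so for that comparison slide and group cannot be told apart within a slide.

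The tissue label was checked against marker genes. All 10 markers of prostate secretory epithelium were detected on every array, with a summed linear signal of 160668 to 166062 in sham, 90215 to 127001 in BPH and 94087 to 112980 in BPH+ghrelin. Markers of the seminal vesicle and coagulating gland, which lie against the rat prostate, summed to 90189 to 157603 in sham, 713 to 28272 in BPH and 545 to 3880 in BPH+ghrelin. These sums are carried by Semg1 and Svs4. With limma, Svs3a and Svs4 passed as lower in BPH than in sham, and these and Semg1 in BPH+ghrelin. The other markers of this list, Svs5 and Svs6, had higher values than sham in both groups (0.26 and 1.27 in BPH, 0.52 and 0.32 in BPH+ghrelin) and did not pass. The part of such differences in tissue make-up in the results below was not tested. In bulk tissue, fewer cells of a type and less RNA per cell cannot be told apart.

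Of the 43 genes, 20 were detected on all 9 arrays. A gene was tested in a comparison where a probe of it was detected on 3 or more of the 6 arrays compared, which left 29 genes for BPH against sham, 30 for BPH+ghrelin against BPH and 25 for BPH+ghrelin against sham. In all, 31 genes were tested at least once. The other 12 were Wnt1, Wnt5a, Wnt7a, Wnt7b, Wnt8b, Wnt9b, Rspo2, Fzd5, Fzd9, Dkk1, Dkk4 and Axin2. Of these, Wnt5a, Wnt7b and Dkk1 were detected on 0 arrays, so for these 3 ligands and antagonists the array gives only an upper bound set by its background.

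Castration with dihydrotestosterone was compared with sham first. With limma over 19548 genes, a count in which each transcript or probe without a symbol stands as its own gene, 2 of the 29 members tested passed an adjusted p under 0.05, against 4.33% of all genes. Rspo3 fell (2.18% of all genes did) and Wnt10a rose (2.15% did). At an unadjusted p under 0.05 the count was 8, against 26.5%. The arrays of the groups did not overlap for 8 members, against 31.3% of all genes, and 3 of those, Rspo3, Sfrp2 and Wnt10a, were at least 2-fold apart, against 5.68% of all genes. Of the members tested, 13 had higher and 16 had lower values in BPH, whatever the size, where 53.7% of all genes were higher. The median log2 difference of the members was -0.03, and that of all genes tested was 0.04. Scaling the arrays to their 75th percentile moved the median of all genes from 0.04 to -0.09, and Rspo3 was then the 1 member called.

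Ghrelin on top of this treatment was compared with the BPH group. Here 1 of the 30 members tested passed, against 1.48% of 19747 genes. It was Fzd3, which rose as 0.496% of all genes did, and 0 members fell, as 0.987% of all genes did. At an unadjusted p under 0.05 the limma count was 7, against 21.1%. Under 75th percentile scaling the 1 member called was instead Dkk3, which was lower with ghrelin, against 2.62% of all genes, so that the split turned from 1 higher and 0 lower to 0 higher and 1 lower. Dkk3 and Fzd3 both passed with the deposited matrix (1.85% of all genes did) and with a trended and robust eBayes (1.51%). The arrays did not overlap for 13 members, against 39.2% of all genes, and 2 of them, Sfrp4 and Wnt2b, were at least 2-fold apart, against 4.93% of all genes. Values were higher with ghrelin for 15 members and for 51.7% of all genes. The members' median difference was -0.02 and that of all genes 0.02.

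BPH+ghrelin was then set against sham, a comparison that shares its arrays with both others. Of the 25 members tested, 5 passed, against 6.30% of 19195 genes. Rspo3, Sfrp2 and Dkk3 were lower (3 members, against 3.30%) and Wnt4 and Fzd3 were higher (2 members, against 3.00%) in BPH+ghrelin. At an unadjusted p under 0.05 the count was 10, against 23.7%. There was no overlap for 9 members, against 30.4% of all genes, and 3 of these (Sfrp2, Wnt4 and Wnt10a) were at least 2-fold apart, against 5.87% of all genes. Values were higher for 12 members and for 54.4% of all genes. The median was -0.04 over the members and 0.04 over all genes. The counts rested on single arrays, as did those over all genes. Without BPH+ghrelin replicate 2, BPH+ghrelin replicate 3 or sham replicate 3, 0 members were called, and 1.17%, 2.88% and 1.34% of all genes were. Without sham replicate 2 the same 5 members were called and 1923 of the 19195 genes. In the comparison of BPH with sham, 8 members were called without sham replicate 1 (Dkkl1, Fzd4, Lgr4, Rspo3, Sfrp2, Wnt10a, Wnt4 and Wnt6), in a fit that called 15.8% of all genes. Without sham replicate 2, Rspo3 and Sfrp2 were called, and 4.70% of all genes.

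**Figure D1:**
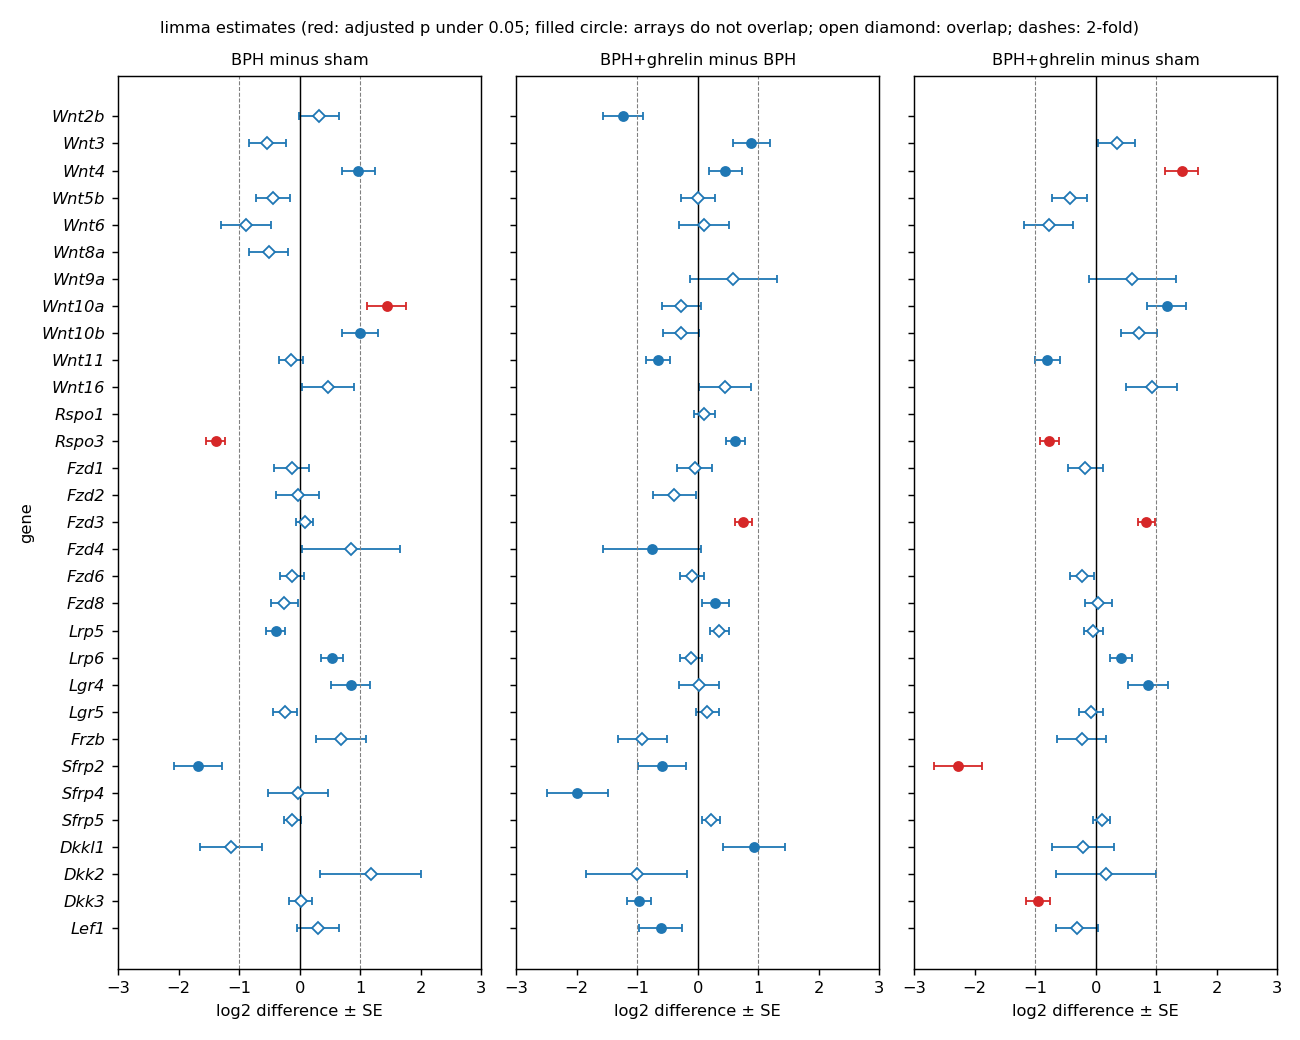
Log2 differences (horizontal axis, with the standard error of the limma fit as bars) of the 31 members tested at least once, in order of role, for the 3 comparisons. Red marks an adjusted p under 0.05, filled circles mark groups whose arrays do not overlap, open diamonds mark overlap, and dashed lines mark 2-fold: Rspo3 is at -1.39 in BPH against sham and at 0.62 in BPH+ghrelin against BPH.

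Rspo3, a secreted R-spondin that amplifies Wnt signals through Lgr receptors, kept its call against sham in more of the alternative fits than any other member called. It read 5.87, 6.12 and 5.88 on the sham arrays, 4.46, 4.59 and 4.65 on the BPH arrays, and 5.46, 4.98 and 5.14 on the BPH+ghrelin arrays. Every BPH array was below every other array, every sham array was above every other array, and the BPH+ghrelin arrays lay between. The BPH signal was 2.62-fold below sham (log2 difference -1.39, SE 0.155, limma adjusted p = 0.00457). This call held when any of the 6 arrays was left out, where the difference stayed between -1.44 and -1.32. With slide as a block the difference was -1.83 and the adjusted p 0.246, in a fit where 2 genes of all those tested passed. With normexp background correction, which draws dim signals together, it was -0.51 and still passed (limma adjusted p = 0.0134).

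For BPH+ghrelin against BPH, the Rspo3 difference was 0.62 (SE 0.155, limma adjusted p = 0.0896), so it did not pass over all genes although the arrays did not overlap. Within slide 3, where 1 BPH+ghrelin array stands beside the 3 BPH arrays, the difference was 0.89. Against sham, Rspo3 was still lower in BPH+ghrelin by 0.77 on the log2 scale (difference -0.77, SE 0.154, limma adjusted p = 0.0288), and by -0.94 within slide 2. That call was lost without BPH+ghrelin replicate 2, BPH+ghrelin replicate 3 or sham replicate 3, where the adjusted p ran from 0.0840 to 0.129. It was also lost under normexp, with only the 6 arrays compared, and with replicate number or slide as a block.

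The other R-spondins were dim. Rspo1 was tested only for BPH+ghrelin against BPH, with a difference of 0.11, and Rspo2 was detected on 2 of 9 arrays. Of the R-spondin receptors, Lgr4 read 8.38, 6.95 and 7.95 in sham, 8.44, 8.55 and 8.83 in BPH, and 8.81, 8.57 and 8.51 in BPH+ghrelin. Its BPH arrays and its BPH+ghrelin arrays were all above the sham arrays, with sham replicate 2 the lowest. The differences from sham were 0.84 (limma adjusted p = 0.155) and 0.87 (limma adjusted p = 0.153), and without sham replicate 2 they were 0.44 and 0.47. Lgr5, a stem cell marker and a target of the canonical pathway, read 5.02, 4.51 and 5.14 in sham, 4.87, 4.67 and 4.40 in BPH, and 4.75, 4.82 and 4.86 in BPH+ghrelin. Its groups overlapped in each of the 3 comparisons, with differences of -0.24, 0.16 and -0.08.

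**Figure D2:**
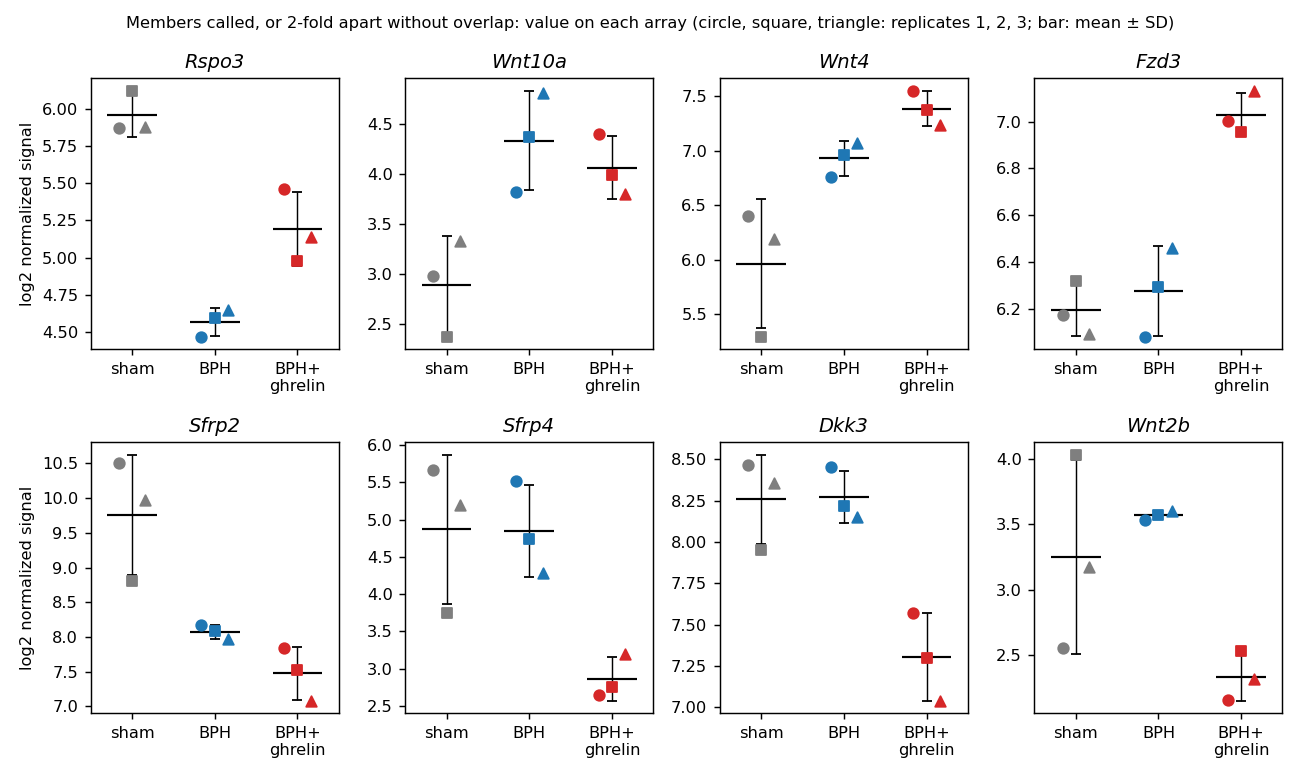
Log2 normalized signal (vertical axis, its own range in each panel, not starting at 0) on each of the 9 arrays for the 8 members called, or at least 2-fold apart without overlap, in any comparison, with group mean and SD as bars. Rspo3 is lowest in BPH (4.46 to 4.65), Fzd3 is highest in BPH+ghrelin (6.96 to 7.13), and Sfrp4 and Wnt2b were detected on 0 of 3 BPH+ghrelin arrays, and Wnt10a on 1 of 3 sham arrays.

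The promoters of the called genes are printed next, because they are the sequences through which a change of transcript level can be compared with known motifs. They span 250 bases before to 50 after the RefSeq transcription start, on GRCr8. The table used here held 4 of the 6 called genes, and Fzd3 and Dkk3 had no entry. All lie on the plus strand: Rspo3 at chr1:30112279-30112578, Sfrp2 at chr2:171387286-171387585, Wnt10a at chr9:83798344-83798643, and Wnt4 at chr5:154797200-154797499. The promoter of Axin2, a classical target of beta-catenin, is shown with them at chr10:94398535-94398834. Capitals mark each match to the TCF/LEF core, spelled CTTTGA, or to the androgen receptor half-site, spelled AGAACA. Both strands were searched, so that the core may also appear in the printed strand as TCAAAG and the half-site as TGTTCT, and these strings do not overlap each other in the windows shown.
Rspo3: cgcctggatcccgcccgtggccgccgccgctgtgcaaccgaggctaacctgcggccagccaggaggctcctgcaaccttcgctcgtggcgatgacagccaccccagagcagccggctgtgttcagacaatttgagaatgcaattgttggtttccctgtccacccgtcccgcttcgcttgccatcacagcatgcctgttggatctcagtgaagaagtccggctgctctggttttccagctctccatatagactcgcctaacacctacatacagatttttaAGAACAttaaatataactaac
Sfrp2: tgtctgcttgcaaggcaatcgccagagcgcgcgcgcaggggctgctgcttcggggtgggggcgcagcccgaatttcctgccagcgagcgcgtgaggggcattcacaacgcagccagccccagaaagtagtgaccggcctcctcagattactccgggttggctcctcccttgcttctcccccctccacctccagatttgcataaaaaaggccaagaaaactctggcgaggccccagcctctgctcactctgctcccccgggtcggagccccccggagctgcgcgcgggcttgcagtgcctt
Wnt10a: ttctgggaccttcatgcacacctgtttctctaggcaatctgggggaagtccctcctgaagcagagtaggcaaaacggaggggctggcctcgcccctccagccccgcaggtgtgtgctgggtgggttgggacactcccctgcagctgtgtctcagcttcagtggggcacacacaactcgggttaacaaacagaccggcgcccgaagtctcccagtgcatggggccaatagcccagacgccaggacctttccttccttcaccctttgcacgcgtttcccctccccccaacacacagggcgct
Wnt4: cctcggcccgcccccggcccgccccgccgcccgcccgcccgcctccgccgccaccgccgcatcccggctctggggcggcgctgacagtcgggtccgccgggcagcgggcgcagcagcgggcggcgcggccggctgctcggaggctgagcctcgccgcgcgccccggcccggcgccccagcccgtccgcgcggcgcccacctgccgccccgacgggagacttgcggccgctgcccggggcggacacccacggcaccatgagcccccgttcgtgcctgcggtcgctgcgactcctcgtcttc
Axin2: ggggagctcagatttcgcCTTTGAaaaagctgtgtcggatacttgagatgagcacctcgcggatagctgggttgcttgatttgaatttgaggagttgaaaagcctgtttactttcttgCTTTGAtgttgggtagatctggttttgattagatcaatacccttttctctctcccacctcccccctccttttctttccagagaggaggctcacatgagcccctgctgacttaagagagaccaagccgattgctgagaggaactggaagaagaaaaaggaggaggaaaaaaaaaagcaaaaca

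Axin2 held the TCF/LEF core at 2 places, with first bases at positions -232 and -132 from the start site. The Rspo3 window held the androgen half-site once, at position 30 after the start. The windows of Sfrp2, Wnt10a and Wnt4 contain neither string. Among all 33469 promoters of the table, 16.1% held the TCF/LEF core and 20.7% the androgen half-site. Among the 29 member promoters found in the table, 4 held the former (Axin2, Dkk1, Dkkl1 and Wnt8a) and 2 the latter (Rspo3 and Wnt8b). A match to 6 letters is a description of the sequence and not a binding site. The windows also differ in base composition, with 83.3% G and C in Wnt4, 65% in Sfrp2, 61.3% in Wnt10a and 55.3% in Rspo3, where the median of all promoters was 52.3%.

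Among the Wnt ligands, 10 of 17 were tested for BPH against sham, and their values lay on both sides of 0, with 5 higher and 5 lower in BPH. Wnt10a, a canonical ligand of epithelial appendages, read 2.98, 2.37 and 3.32 in sham, 3.82, 4.37 and 4.81 in BPH, and 4.40, 3.99 and 3.79 in BPH+ghrelin. Both castrated groups were above sham without overlap, and did not separate from each other. The BPH difference was 1.44 (SE 0.322, limma adjusted p = 0.0473), or 2.72-fold, and the BPH+ghrelin difference from sham was 1.17 (limma adjusted p = 0.0713). The sham signal was detected only on replicate 3. The BPH call was kept in 2 of 6 fits that left out an array and lost without BPH replicate 2 or 3 or sham replicate 2 or 3, where the adjusted p ran from 0.0736 to 0.181. With normexp background correction the difference was 0.20 (limma adjusted p = 0.180).

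Wnt4, a ligand expressed by epithelia and needed for several ducts and glands to form, read 6.40, 5.29 and 6.19 in sham, 6.76, 6.96 and 7.07 in BPH, and 7.55, 7.37 and 7.23 in BPH+ghrelin. The 3 groups did not overlap, with sham lowest and BPH+ghrelin highest. BPH+ghrelin was 2.68-fold above sham (log2 difference 1.42, SE 0.272, limma adjusted p = 0.0248), and within slide 2 the difference was 1.46. The step from sham to BPH was 0.97 (limma adjusted p = 0.0807) and that from BPH to BPH+ghrelin was 0.45 (limma adjusted p = 0.370), neither past the threshold. Without sham replicate 2, its lowest array, the difference of BPH+ghrelin from sham was 1.09 (limma adjusted p = 0.00928). The call was lost when any 1 of the BPH+ghrelin arrays or sham replicate 3 was left out, with adjusted p from 0.0586 to 0.103. It was also lost with only the 6 arrays compared and with replicate number or slide as a block.

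Wnt2b, a ligand made by stroma in several organs, read 2.55, 4.03 and 3.17 in sham, 3.54, 3.57 and 3.60 in BPH, and 2.16, 2.53 and 2.32 in BPH+ghrelin. All BPH+ghrelin arrays were below the BPH arrays, and Wnt2b was detected on 0 of the BPH+ghrelin arrays. On the quantile-normalized scale its level there was at least 1.82-fold lower, a bound taken from the dimmest detected signal on each array. The fitted difference was -1.23 (SE 0.324, limma adjusted p = 0.0965), and under normexp it was -0.16. Wnt2b was not tested against sham for BPH+ghrelin, and its BPH difference from sham was 0.32 (-0.03 without sham replicate 1).

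Wnt3, another canonical ligand, read 8.77, 7.79 and 8.88 in sham, 7.71, 7.84 and 8.29 in BPH, and 9.09, 8.81 and 8.59 in BPH+ghrelin. The BPH+ghrelin arrays were above the BPH arrays by 0.88 (SE 0.305, limma adjusted p = 0.162), and sham overlapped both. Wnt10b read 4.14, 3.90 and 3.46 in sham, 4.75, 4.83 and 4.90 in BPH, and 5.12, 4.63 and 3.90 in BPH+ghrelin. Its BPH arrays were all above sham by a mean of 0.99 (SE 0.302, limma adjusted p = 0.0960), while BPH+ghrelin overlapped both. Wnt10b was detected on 1 of 3 sham arrays, and under normexp its BPH difference was 0.20. With slide as a block the difference was -0.04, the other sign.

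The remaining ligands tested were Wnt5b, Wnt6, Wnt8a, Wnt9a, Wnt11 and Wnt16, and none passed in any comparison with limma's fit of all arrays. Of these, Wnt6 and Wnt11 passed under some of the alternatives, Wnt6 as lower in BPH than in sham (without sham replicate 1 and with the random slide block) and Wnt11 as given with its probes. Wnt5b, which acts mainly outside the beta-catenin branch, had the smallest difference of all members between BPH+ghrelin and BPH. It read 4.19, 4.86 and 4.45 in sham, 4.53, 4.16 and 3.51 in BPH, and 3.86, 4.02 and 4.32 in BPH+ghrelin. The last 2 groups overlapped fully, with a difference of 0.00 (SE 0.284). Wnt16 read 6.83, 5.60 and 6.50 in sham against 7.79, 7.26 and 6.67 in BPH+ghrelin, a difference of 0.93 with overlap (limma adjusted p = 0.231).

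Fzd3, a Frizzled receptor known for axon guidance and planar cell polarity, was the member that passed between BPH+ghrelin and BPH. It read 6.17, 6.32 and 6.09 in sham, 6.08, 6.29 and 6.46 in BPH, and 7.00, 6.96 and 7.13 in BPH+ghrelin. Sham and BPH overlapped (difference 0.08), and every BPH+ghrelin array was above both groups. The signal with ghrelin was 1.69-fold above BPH (log2 difference 0.75, SE 0.137, limma adjusted p = 0.0430) and 1.79-fold above sham (0.84, SE 0.136, limma adjusted p = 0.0148). Within slide 3 the difference from BPH was 0.73, and within slide 2 the difference from sham was 0.80. With slide as a block both Fzd3 calls were lost, in fits that called 0.0101% and 0.438% of all genes. The call against BPH was also lost with replicate number as a block and without the filter on detection.

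Under 75th percentile scaling the Fzd3 difference from BPH was 0.68 (limma adjusted p = 0.0508). With quantile normalization it varied between 0.65 and 0.84 when an array was left out, but the call was kept only without BPH replicate 3. In the other 5 such fits (without BPH+ghrelin replicate 1, 2 or 3, or BPH replicate 1 or 2) the adjusted p ran from 0.0907 to 0.214. The call against sham was kept without sham replicate 1 or 2 and lost in the other 4 fits, with adjusted p from 0.0507 to 0.0748.

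No other Frizzled receptor passed in the fit of all arrays. Fzd8 read 8.08, 9.02 and 8.40 in sham, 8.09, 8.35 and 8.32 in BPH, and 8.49, 8.53 and 8.60 in BPH+ghrelin, with the last 2 groups apart by 0.29 without overlap (limma adjusted p = 0.478). Fzd1 and Fzd6 differed by at most 0.22 in size in any comparison, with all groups overlapping, and both probes of Fzd6 gave like values. Fzd4 was dim and scattered on the sham arrays (4.22, 0.56 and 1.83), and Fzd2 was detected on 4 of 9 arrays.

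**Figure D3:**
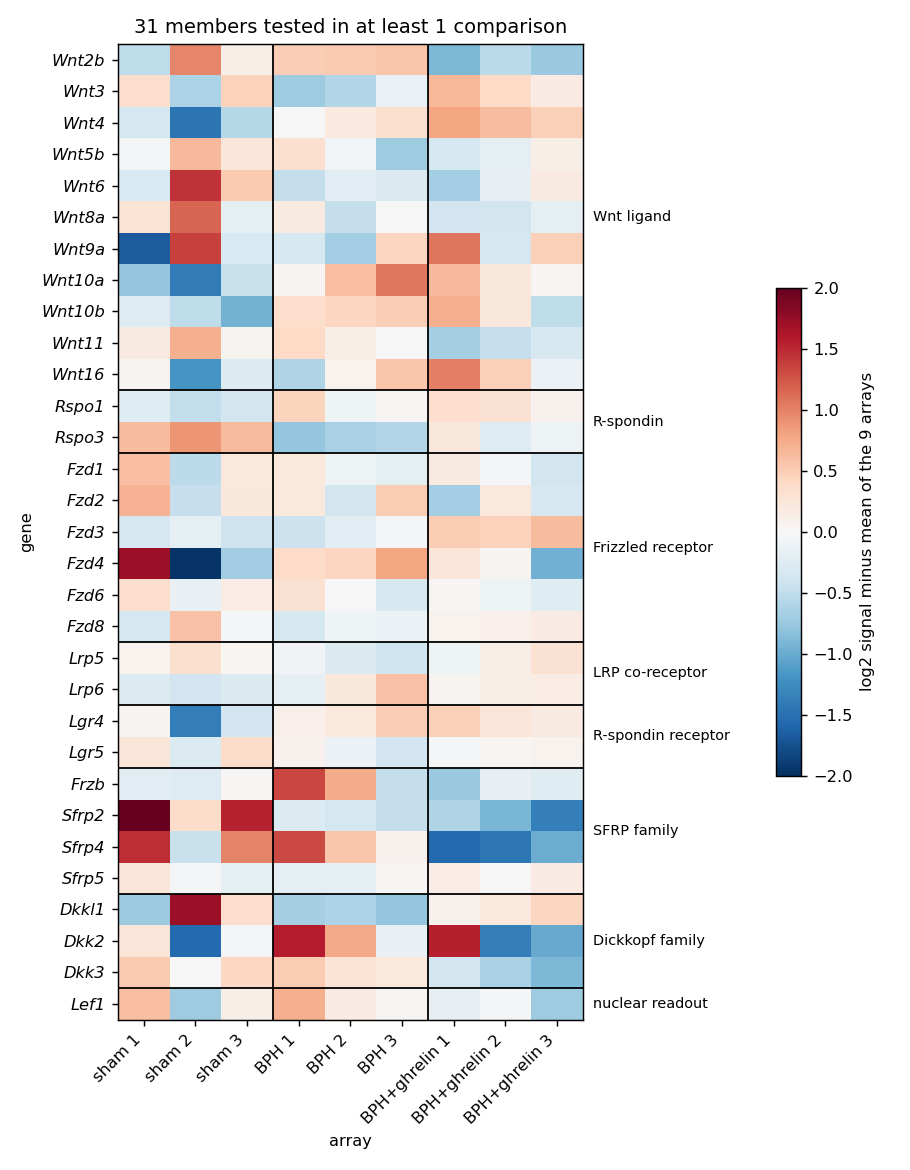
Log2 signal of each of the 31 members tested, minus that gene's mean over the 9 arrays (colour, ending at -2 and 2), with arrays in columns by group and genes in rows by role. Sfrp2 is high on the sham arrays and Rspo3 low on the BPH arrays, while sham 2 departs from sham 1 and sham 3 for several genes, among them Wnt6, Wnt4, Lgr4 and Dkkl1.

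The co-receptor Lrp6 was measured by 2 probes, and both gave BPH arrays above sham arrays. The brighter probe read 11.60, 11.50 and 11.58 in sham, 11.70, 12.11 and 12.46 in BPH, and 11.94, 11.99 and 12.02 in BPH+ghrelin. The dimmer probe read 7.23, 7.15 and 7.29 in sham, 8.00, 8.03 and 7.97 in BPH, and 7.40, 7.37 and 7.48 in BPH+ghrelin. BPH was above sham by 0.53 on the brighter probe (SE 0.184, limma adjusted p = 0.125) and by 0.78 on the dimmer one, without overlap on either. The probes disagreed on ghrelin: the dimmer probe was lower in BPH+ghrelin than in BPH by a difference of -0.58 without overlap, whereas the brighter probe gave -0.11 with overlap (0.14 under 75th percentile scaling). With the mean of both probes, Lrp6 passed in BPH against sham (0.65, limma adjusted p = 0.0333), and it also passed on the brighter probe without BPH replicate 1 (0.73, limma adjusted p = 0.0489).

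Lrp5, the other co-receptor, read 9.60, 9.86 and 9.58 in sham, 9.47, 9.25 and 9.13 in BPH, and 9.43, 9.66 and 9.84 in BPH+ghrelin. The BPH arrays were all below the sham arrays by a difference of -0.40 (SE 0.158, limma adjusted p = 0.161). BPH+ghrelin overlapped both groups, with a difference from sham of -0.04, the smallest of any member in that comparison, and of 0.36 from BPH (limma adjusted p = 0.240).

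Probes of the same gene also disagreed for Sfrp5, Wnt11 and, as given with the readouts, Lef1. For Sfrp5, BPH+ghrelin was above BPH by 1.14 without overlap on the dimmer probe and by 0.22 with overlap on the brighter one. For Wnt11, BPH+ghrelin was lower than sham by a difference of -0.80 without overlap on the brighter probe (limma adjusted p = 0.0571), and the other probe gave -0.11 with overlap. The brighter Wnt11 probe passed under 75th percentile scaling (-0.93, limma adjusted p = 0.0268, with 6.91% of all genes) and among probes detected on all 6 arrays (limma adjusted p = 0.0482, with 7.39%), and under none of the other alternatives. Under normexp the Wnt11 difference was -0.023. Both probes of Sfrp5 and of Wnt11 were detected on all 9 arrays.

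**Figure D4:**
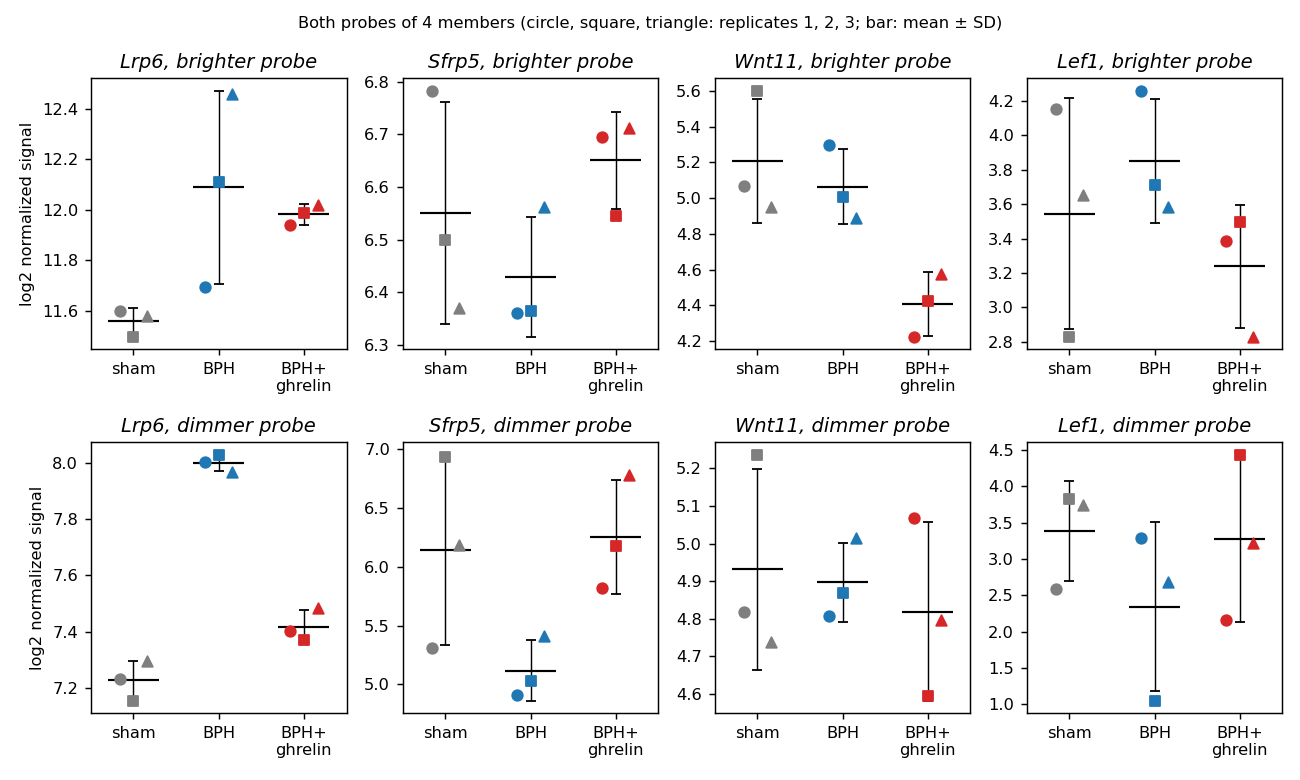
Log2 normalized signal (vertical axis, its own range in each panel, not starting at 0) of the brighter and the dimmer probe of Lrp6, Sfrp5, Wnt11 and Lef1 on each array, with group mean and SD as bars. The dimmer Lrp6 probe sets BPH (7.97 to 8.03) apart from BPH+ghrelin (7.37 to 7.48), and the brighter one does not.

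Of the secreted antagonists, Sfrp2, a Wnt-binding protein of stromal cells, read 10.50, 8.81 and 9.97 in sham, 8.17, 8.09 and 7.97 in BPH, and 7.84, 7.53 and 7.08 in BPH+ghrelin. Sham was highest, BPH+ghrelin lowest, and no groups overlapped. BPH+ghrelin was 4.85-fold below sham (log2 difference -2.28, SE 0.395, limma adjusted p = 0.0184). The BPH difference from sham was -1.68 (SE 0.396, limma adjusted p = 0.0543), and the difference between BPH+ghrelin and BPH was -0.59 (limma adjusted p = 0.415).

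Sham replicate 2 lay more than 1 log2 unit below the other sham arrays for Sfrp2. Without it the BPH difference from sham was -2.15 and passed (limma adjusted p = 0.00627), and the BPH+ghrelin difference was -2.75 (limma adjusted p = 0.00191). The BPH difference also passed without sham replicate 1 (-1.32, limma adjusted p = 0.0469), under normexp, among probes detected on all 6 arrays, with the random slide block, with the deposited matrix and with a trended and robust eBayes. In that order, these fits called 15.8%, 5.22%, 6.56%, 36.3%, 5.29% and 4.78% of all genes. Under 10 of the 17 alternatives the BPH difference did not pass, with a limma adjusted p of up to 0.670. The BPH+ghrelin call was lost without BPH+ghrelin replicate 2 or 3 or sham replicate 3, with adjusted p from 0.0586 to 0.0804. It was also lost with only the 6 arrays compared and with slide as a block.

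Sfrp4, a relative of Sfrp2, read 5.67, 3.75 and 5.19 in sham, 5.52, 4.74 and 4.29 in BPH, and 2.64, 2.75 and 3.20 in BPH+ghrelin. Sham and BPH overlapped, with a difference of -0.02 (-0.59 to 0.38 with an array left out), and every BPH+ghrelin array lay below all other arrays. It was detected on none of the BPH+ghrelin arrays. Taking the larger of its signal and the dimmest detected signal on each of them put it 3.95-fold below BPH. That is close to the fitted 3.96-fold and carries the same error, so it is not a firm lower bound. The fitted difference of -1.99 (SE 0.499) gave a limma adjusted p of 0.0918. Under normexp the difference was -0.36 (limma adjusted p = 0.178). A fit of those 6 arrays alone, which called 10.7% of all genes against 1.48%, gave a limma adjusted p of 0.0277. Frzb, a Wnt-binding protein first described in cartilage, read 4.68, 4.63 and 4.91 in sham, 6.22, 5.64 and 4.42 in BPH, and 4.15, 4.72 and 4.66 in BPH+ghrelin. Its BPH arrays spread widely and overlapped both groups. The difference of BPH+ghrelin from BPH was -0.91 (limma adjusted p = 0.246), and -1.41 to -0.51 with an array left out. It passed without BPH replicate 3 (-1.41), in a fit that called 2.03% of all genes, and under none of the other alternatives.

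Dkk3, a divergent Dickkopf protein that is abundant in the prostate and does not bind the LRP co-receptors as its relatives do, read 8.47, 7.95 and 8.35 in sham, 8.45, 8.21 and 8.15 in BPH, and 7.57, 7.30 and 7.04 in BPH+ghrelin. Sham and BPH overlapped, and every BPH+ghrelin array was below every array of the other groups. The difference of BPH from sham was 0.02 (SE 0.192, limma adjusted p = 0.968), the smallest of any member in that comparison. BPH+ghrelin was 1.94-fold below sham (log2 difference -0.95, SE 0.191, limma adjusted p = 0.0287) and 1.96-fold below BPH (-0.97, SE 0.192), where the limma adjusted p was 0.0546. The difference from BPH passed under 75th percentile scaling (-1.04, limma adjusted p = 0.0399), with only those 6 arrays, with the random slide block, with the deposited matrix and with a trended and robust eBayes. Of these, the fit of 6 arrays and the random block called 10.7% and 9.27% of all genes. It passed in none of the 6 fits that left out an array (limma adjusted p from 0.0652 to 0.220) and under none of the other alternatives (0.0509 to 0.479). The difference from sham was -1.04 within slide 2, and that from BPH -0.70 within slide 3. The call against sham was lost without BPH+ghrelin replicate 2 or 3 or sham replicate 3, with adjusted p from 0.0816 to 0.117. It was also lost with only the 6 arrays compared and with slide as a block.

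Dkkl1, a relative of the Dickkopf proteins best known from testis, read 6.66, 9.12 and 7.74 in sham, 6.73, 6.77 and 6.61 in BPH, and 7.48, 7.60 and 7.81 in BPH+ghrelin. BPH+ghrelin was above BPH by 0.92 without overlap (limma adjusted p = 0.334), and sham spread over both. Dkk2 read 3.70, 1.91 and 3.41 in sham, 5.03, 4.21 and 3.30 in BPH, and 5.00, 2.08 and 2.45 in BPH+ghrelin, and all groups overlapped.

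Cell type markers were set beside these genes, since R-spondins and secreted Frizzled-related proteins are often made by stroma. Between BPH+ghrelin and BPH, all 8 smooth muscle markers tested had lower values with ghrelin and 1 passed (Myh11, -0.96, limma adjusted p = 0.0160). Of 8 fibroblast and matrix markers, 7 had lower values and 2 passed, Lum (-1.65, limma adjusted p = 0.0240) and Vim (-1.28, limma adjusted p = 0.0252). Smooth muscle markers summed to 17691 to 31246 in sham, 17992 to 34482 in BPH and 17199 to 18974 in BPH+ghrelin. Fibroblast and matrix markers summed to 13169 to 24254, 19911 to 29994 and 18708 to 25971 in the same order, so these sums overlapped. Each marker of these lists was detected on at least 1 array of every group. Between BPH and sham, 0 stromal markers of these lists passed with limma, and 1 smooth muscle and 1 fibroblast marker had an unadjusted p under 0.05. All 8 fibroblast and matrix markers (median 0.38) and 6 of 8 smooth muscle markers (median 0.17) had higher values in BPH there. Of BPH+ghrelin and sham, the former was lower for all 8 smooth muscle markers, with Myh11 past the threshold (-1.07, limma adjusted p = 0.00244), while 5 fibroblast and matrix markers were higher and 3 lower, with Lum past it (-1.42, limma adjusted p = 0.0145).

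Other cell types were counted in the same way. Basal epithelium markers summed to 10555 to 11858 in sham, 13274 to 14058 in BPH and 14299 to 15553 in BPH+ghrelin, and 2 of 6, Krt14 and Krt17, passed with higher values in BPH than in sham. Against these, Tp63, the transcription factor of basal cells, was lower in BPH by a difference of -0.73 without overlap (limma adjusted p = 0.112), and BPH+ghrelin differed from sham by -0.57 (limma adjusted p = 0.191). In that last comparison Krt15 passed (1.21, limma adjusted p = 0.0169). Cycling cell markers summed to 422 to 820, 439 to 1660 and 1721 to 3041, and 1 of 4 tested passed in BPH+ghrelin against BPH (Foxm1, 1.39, limma adjusted p = 0.0430), and Foxm1 passed against sham too (1.36, limma adjusted p = 0.0224). Immune markers summed to 6759 to 27526, 2215 to 3593 and 1509 to 1620. The sham sums lie mostly in Cd52, which was lower in BPH than in sham by a difference of -5.81 (limma adjusted p = 0.0420). The other 4 immune markers tested differed by -0.23 to 0.27 between BPH and sham and did not pass. Between BPH+ghrelin and BPH, all 5 had lower values and 2 passed, Ptprc (-0.82, limma adjusted p = 0.0368) and C1qa (-0.80, limma adjusted p = 0.0489). Against sham all 5 were lower with ghrelin as well, and Cd52 (-8.67, limma adjusted p = 0.00892) and Ptprc (-0.78, limma adjusted p = 0.0187) passed. The sums of endothelial markers were 1190 to 1471, 848 to 1302 and 782 to 911. All 4 tested were lower in BPH+ghrelin than in sham, and Pecam1 passed (-0.62, limma adjusted p = 0.0433).

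Markers of tissue around the gland were counted too. Striated muscle markers summed to 595 to 846 in sham, 390 to 680 in BPH and 540 to 562 in BPH+ghrelin, and 2 of 6 tested, Ckm (-1.90, limma adjusted p = 0.00450) and Tnni2 (-1.37, limma adjusted p = 0.00786), were lower in BPH than in sham. Of the other 4, Acta1 and Myh2 had higher values in BPH (0.54 and 0.42, the latter without overlap) and Myh1 and Tnnt3 lower ones. Both Ckm (-1.96, limma adjusted p = 0.00264) and Tnni2 (-0.79, limma adjusted p = 0.0390) also passed as lower in BPH+ghrelin than in sham. Nerve and Schwann cell markers summed to 1757 to 1861, 1017 to 3384 and 3218 to 6601, and 0 of 6 passed with limma in any comparison (0, 1 and 2 at an unadjusted p under 0.05 in the order of comparisons above). The higher sums with ghrelin lie in Uchl1, which read 9.92, 10.34 and 10.10 in sham, 9.15, 10.74 and 11.42 in BPH, and 12.52, 12.05 and 11.29 in BPH+ghrelin (1.51 above BPH, limma adjusted p = 0.174). Of the 6 markers, 3 were lower with ghrelin than in BPH, and the median difference was 0.01. Adipocyte markers summed to 782 to 10040, 3022 to 6286 and 485 to 8165, with BPH+ghrelin replicate 1 at 485 against 4086 and 8165 on replicates 2 and 3, and 0 of 4 tested passed with limma (0 at an unadjusted p under 0.05 in each comparison). Detection failed on all arrays for Itgam in each group, for Cd3e in sham and BPH+ghrelin, for Tek in BPH+ghrelin, and for Lep and Myh4 in each group. The part of these markers in the differences of Rspo3, Sfrp2, Sfrp4, Dkk3, Wnt4 and Fzd3 was not tested.

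Readouts of the beta-catenin branch were examined next. Axin2, the feedback inhibitor most widely used as such a readout, was detected only on BPH+ghrelin replicate 1, and it was not tested. Its signals were 3.08, 1.70 and 1.51 in sham, 1.50, 2.10 and 1.49 in BPH, and 3.64, 0.89 and 3.09 in BPH+ghrelin, so the groups overlapped at the level of background. Lef1, a transcription factor that works with beta-catenin, read 4.15, 2.83 and 3.65 in sham, 4.26, 3.71 and 3.58 in BPH, and 3.38, 3.50 and 2.83 in BPH+ghrelin. BPH+ghrelin lay below BPH without overlap by a difference of -0.61 (SE 0.352, limma adjusted p = 0.350), while its dimmer probe, detected on 2 of those 6 arrays, gave 0.93 with overlap.

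A list of 66 other genes of the pathway was counted in the same fit. In BPH against sham, 48 were tested, 1 was higher and 0 were lower past the threshold, where 2.15% and 2.18% of all genes were, and the list's median difference was 0.08. Between BPH+ghrelin and BPH, 46 were tested, 1 was higher and 1 lower, against 0.496% and 0.987% of all genes, with a median of -0.15. Between BPH+ghrelin and sham, 46 were tested, 1 was higher and 3 lower, against 3.00% and 3.30%, with a median of -0.01. Medians of all genes in these comparisons are those given above.

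Tle4, a co-repressor that TCF/LEF factors recruit, rose in BPH. It read 5.33, 4.64 and 5.14 in sham, 6.04, 6.14 and 6.08 in BPH, and 5.82, 5.75 and 5.74 in BPH+ghrelin, with no overlap between any groups. The difference from sham was 1.05 in BPH (limma adjusted p = 0.0210) and 0.74 in BPH+ghrelin (limma adjusted p = 0.0475). The first call was lost without BPH replicate 2 or 3 or sham replicate 3, and the second without any 1 of the BPH+ghrelin arrays or sham replicate 3. Tle2, of the same co-repressor family, took the other direction: it read 6.44, 5.80 and 6.25 in sham, 5.13, 5.09 and 5.20 in BPH, and 5.33, 4.88 and 4.39 in BPH+ghrelin. BPH+ghrelin was below sham by a difference of -1.30 (limma adjusted p = 0.0255, lost without BPH+ghrelin replicate 2 or 3 or sham replicate 3), and the BPH difference was -1.03 (limma adjusted p = 0.0586).

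Ccn5, a secreted matricellular protein and reported Wnt target, read 5.55, 4.77 and 5.19 in sham, 5.56, 5.20 and 4.66 in BPH, and 2.37, 2.64 and 2.84 in BPH+ghrelin. Sham and BPH overlapped, and the BPH+ghrelin arrays, on none of which it was detected, lay more than 1 log2 unit below all others. The BPH+ghrelin level was at least 5.42-fold lower than BPH (limma adjusted p = 0.0147) and at least 5.51-fold lower than sham (limma adjusted p = 0.00269). The call against sham held with any array left out, and that against BPH was lost without BPH+ghrelin replicate 2 or BPH replicate 1 or 2.

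Ndp encodes norrin, a ligand that signals through Fzd4 without being a Wnt protein. It read 4.18, 4.23 and 3.72 in sham, 3.85, 3.18 and 2.58 in BPH, and 1.76, 2.11 and 2.39 in BPH+ghrelin. Detected on 0 BPH+ghrelin arrays, its level was at least 2.53-fold lower than sham (limma adjusted p = 0.0154, lost without BPH+ghrelin replicate 1 or 2), and it was not tested between BPH+ghrelin and BPH. Csnk1e, a casein kinase acting on Dishevelled, read 6.35, 6.22 and 6.33 in sham, 5.78, 6.12 and 5.93 in BPH, and 6.83, 6.62 and 6.63 in BPH+ghrelin. It rose by 0.75 with ghrelin (limma adjusted p = 0.0390), a call lost in each of the 6 fits that left out an array.

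A few genes were at least 2-fold apart without overlap and did not pass in the fit of all arrays. Tpbg, a membrane glycoprotein that dampens Lrp6 signalling, read 8.34, 5.83 and 7.96 in sham against 5.43, 5.02 and 4.68 in BPH and 4.56, 5.41 and 5.24 in BPH+ghrelin. Its differences from sham were -2.33 (limma adjusted p = 0.0677) and -2.31 (limma adjusted p = 0.0611). Sham replicate 2, at 5.83, stood well below the other sham arrays. With an array left out the Tpbg differences ran from -3.12 to -1.85 and from -3.09 to -1.83. Both passed without sham replicate 2, where 4.70% of 19548 and 1923 of 19195 genes did, and in no other such fit. Sp5, a transcription factor and direct target of beta-catenin, read 5.30, 4.32 and 4.63 in sham, 3.23, 3.13 and 3.29 in BPH, and 4.14, 3.26 and 2.79 in BPH+ghrelin.

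The Sp5 arrays of both castrated groups were below the sham arrays, with differences of -1.53 (limma adjusted p = 0.0535) and -1.35 (limma adjusted p = 0.0634). Apc, a scaffold of the beta-catenin destruction complex, was above sham in BPH by 1.07 (limma adjusted p = 0.213), and sham replicate 2 at 3.29 stood well below sham replicates 1 and 3 at 5.48 and 5.15; without sham replicate 2 the difference was 0.40. Prickle1, of the planar polarity branch, was 2.19-fold lower in BPH+ghrelin than in BPH (-1.13, limma adjusted p = 0.127).

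**Figure D5:**
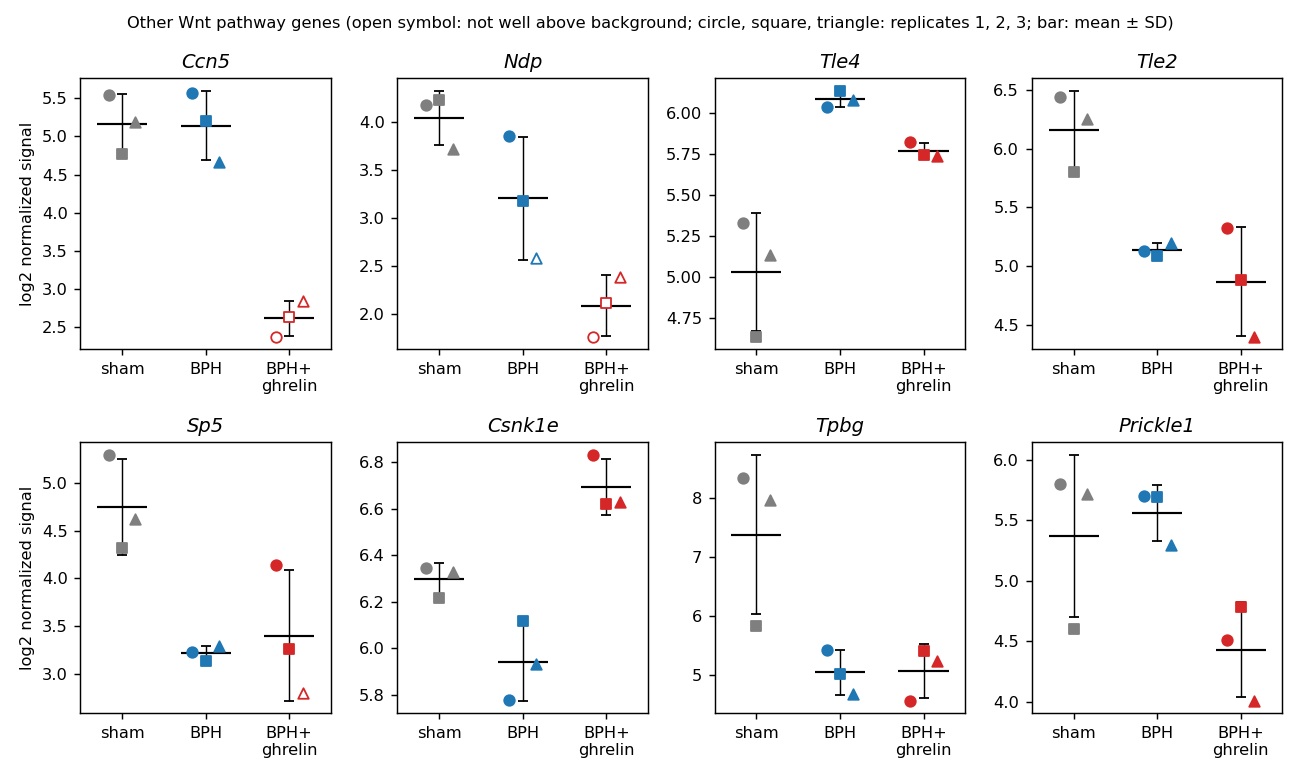
Log2 normalized signal (vertical axis, its own range in each panel, not starting at 0) on each array for 8 other genes of the pathway, with group mean and SD as bars; open symbols mark arrays on which the gene was not detected. Ccn5 lies between 4.66 and 5.56 on all sham and BPH arrays and between 2.37 and 2.84 on the BPH+ghrelin arrays.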

How the data were processed

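RNA of whole rat prostates was hybridised to one-colour Agilent arrays, and the authors deposited the scanner output as spot intensity per probe (Agilent Feature Extraction 11.0.1.1) together with a matrix of processed log2 values. Per the study's methods these were made in GeneSpring GX 12.1 with quantile normalization and a 2-fold criterion without a test. The array annotation names the rn4 build, and no coordinate of it is used.

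Here the scanner's processed intensity was averaged over spots of a probe after removal of control spots and outlier flags, quantile normalized as log2 values over the 9 arrays, and fitted with limma 3.58.1 in R 4.3.3, with all 3 groups in the model and Benjamini-Hochberg adjustment over all genes tested. Probes were named through the RefSeq table of GRCr8, which gave 17998 probes (59.3%) a single symbol. Of 51 symbols of the rule in that table, 8 had no matched probe (Rspo4, Wnt2, Wif1, Fzd7, Wnt3a, Fzd10, Lgr6 and Sfrp1). The gene's probe with the highest mean signal among those passing the filter stood for the gene. No spot was saturated (0 on every array), and the number of arrays limits the precision.

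Genes named with values were those called, up to 5 per comparison and direction at least 2-fold apart without overlap, Axin2, Lef1 and Lgr5, and the smallest difference in each comparison; other pathway genes were named if called or among up to 2 per comparison and direction at least 2-fold apart without overlap. Lgr4, Lrp6, Wnt3, Wnt10b, Wnt11, Wnt16, Fzd1, Fzd2, Fzd4, Fzd6, Fzd8, Frzb, Sfrp5, Dkk2, Dkkl1 and Rspo1 were added after their values were seen. The members and lists were chosen with earlier results of these data known. An exact permutation test of 3 arrays against 3 cannot give a two-sided p below 0.1.

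Data were simulated from each probe's mean and spread on these arrays, with independent normal noise and 100 genes changed at each fold. In them, 38% to 39% of genes changed 2-fold and 85% to 87% of those changed 4-fold were called, and 6.06% to 8.70% of calls were false. The simulation held no slide effect, outlying array or correlation between genes, so its rates need not apply to the real arrays. Each column of the deposited log2 matrix correlated best with its own array (0.989 to 0.992), with a slope of 0.907 to 0.910 over all probes and 1.01 over the brighter part, so its direction matches, and its scale does for bright probes; its offset against the scanner values is not given in the sources used here. Its column medians were 5.26. Alternatives were 75th percentile scaling, normexp correction (offset 50) of the median spot signal, other filters on dim probes, the mean of a gene's probes, only the 6 arrays compared, replicate or slide as a block, slide as a random block, a trended and robust eBayes, values of the deposited matrix, and each array left out.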

Additional observations from a re-analysis of the deposited data

How the results depend on the processing

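Among the called members, Rspo3 in BPH against sham kept its call under all alternatives except the slide block (-1.83, limma adjusted p = 0.246); every other member call was lost under several. Limits lie in 3 arrays per group, in slides that hold no BPH beside sham, and in dim probes such as Wnt10a in sham. The labels do not say that a replicate number pairs arrays of different groups. Correlations of deviations from the group mean ran from -0.14 to 0.26 over 9 same-numbered pairs. Between arrays of different groups and numbers they ran from -0.29 to 0.31, so they cannot show whether arrays were paired. Under normexp, differences shrank: Sfrp4 and Wnt2b with ghrelin against BPH were -0.36 and -0.16, and against sham Rspo3 was -0.31 (limma adjusted p = 0.0613), Wnt4 0.87 and Fzd3 0.51, the last pair still called. The random slide block estimated a negative correlation (-0.21, -0.21 and -0.22). The cause of the shifts below was not tested.

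Members called in BPH against sham numbered 2 and became 1 with 75th percentile scaling, without the dim-probe filter, with only the 6 arrays compared and with the replicate block, 0 with the slide block and 11 with the random slide block, and 1 to 8 with an array left out. Of all genes, 4.33% were called at first, then 4.59%, 1.98%, 0.921%, 1.24%, 0.0102% and 36.3% in that order of settings, and 0.609% to 15.8% with an array left out. Between BPH+ghrelin and BPH the count of 1 became 0 without the filter, with the replicate block and with the slide block, 6 with only the 6 arrays compared, 5 with the random slide block, 2 with the deposited matrix and 2 with trend and robust, and 0 to 2 with an array left out. The share of all genes went from 1.48% to 0.725%, 0.0861%, 0.0101%, 10.7%, 9.27%, 1.85% and 1.51%, and 0.0152% to 2.03%. The 6-array fit called Dkk3, Dkkl1, Fzd3, Sfrp4, Wnt2b and Wnt3 there and the random slide block Dkk3, Fzd3, Rspo3, Sfrp4 and Wnt2b, while in BPH against sham the latter called Dkk2, Dkkl1, Lgr4, Lrp5, Lrp6, Rspo3, Sfrp2, Wnt4, Wnt6, Wnt10a and Wnt10b. For BPH+ghrelin against sham, the count of 5 became 1 with only the 6 arrays compared, 3 with the replicate block, 0 with the slide block, and 0 to 6 with an array left out, and the share of all genes went from 6.30% to 4.75%, 2.40% and 0.438%, and with an array left out to between 224 and 1923 of 19195 genes.

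Members at least 2-fold apart without overlap in BPH against sham numbered 3, with 1 under normexp, 5 under the random slide block and 3 to 9 with an array left out, when of all genes 5.68%, 1.37%, 6.90% and 4.50% to 12.8% were. Between BPH+ghrelin and BPH the count of 2 became 0 under normexp and 0 with probes detected on all 6 arrays, and 2 to 5 with an array left out (all genes 4.93%, 0.770%, 3.62% and 4.56% to 7.46%). For BPH+ghrelin against sham, the count of 3 became 1 under normexp, 5 without the filter, and 3 to 6 with an array left out (all genes 5.87%, 1.97%, 5.74% and 6.17% to 9.77%).

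Other pathway genes called in BPH against sham numbered 1, with 2 under 75th percentile scaling, normexp and the deposited matrix, 4 with the filter on all 6 arrays, 0 with only the 6 arrays compared, the replicate block and the slide block, 16 with the random slide block, and 0 to 4 with an array left out. Of all genes, 4.33% were called at first. In that order of settings the share was 4.59%, 5.22%, 5.29%, 6.56%, 0.921%, 1.24%, 0.0102% and 36.3%, and 0.609% to 15.8% with an array left out. With ghrelin against BPH the count of 2 became 1 under normexp, without the filter, with the filter on all 6 arrays and with the mean of probes, 7 with only the 6 arrays compared, 0 with the replicate block and the slide block, 5 with the random slide block, and 0 to 2 with an array left out. The share of all genes went from 1.48% to 1.97%, 0.725%, 1.48%, 1.36%, 10.7%, 0.0861%, 0.0101% and 9.27%, and to 0.0152% to 2.03% with an array left out. For BPH+ghrelin against sham, the count of 4 became 7 under 75th percentile scaling, 2 with the replicate block, 0 with the slide block, and 1 to 9 with an array left out. Here the share of all genes went from 6.30% to 6.91%, 2.40% and 0.438%, and with an array left out to between 224 and 1923 of 19195 genes.

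The sign turned under at least 1 alternative for 14 of 29 members in BPH against sham, 10 of 30 in BPH+ghrelin against BPH and 9 of 25 in BPH+ghrelin against sham (8, 7 and 5 with the slide block). Of these 33 differences, 0 were called in limma's fit of all arrays, and 0 with the turned sign. The rule for named genes covers 5 of them. Dkk3 in BPH against sham was -0.34 with the slide block and -0.14 to 0.12 with an array left out (-0.07 without BPH replicate 1, -0.14 without sham replicate 2), and Lef1 there was -0.054 to 0.61 (-0.054 without sham replicate 2). Wnt5b between BPH+ghrelin and BPH was -0.031 under normexp, -0.20 with the slide block and -0.27 to 0.23 with an array left out (-0.12 without BPH+ghrelin replicate 3, -0.27 without BPH replicate 3). With ghrelin against sham, Lgr5 was 0.079 with the slide block and -0.27 to 0.049 with an array left out (0.049 without sham replicate 3). Lrp5 there was 0.016 with the slide block and -0.14 to 0.067 with an array left out (0.067 without BPH+ghrelin replicate 1, 0.052 without sham replicate 2).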
